A study of Mus musculus with 21 samples.

Results

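Leukocyte integrins are described here by 10 genes chosen by symbol: Itgal, Itgam, Itgax and Itgb2 of the β2 family, Itga4, Itgb7, Itgb1 and Itga5 of the α4 and β1 families, and Itgav and Itgb3. All 10 were found among the 23420 gene symbols of the count table, and all 10 passed the filter on low counts in every comparison. RNA-Seq was carried out on inflammatory monocytes (IMs) in 21 libraries of 5 groups. BM IMs came from the bone marrow of naive FVB mice (n = 3) and of naive DBA2 mice (n = 3). Tumor-infiltrating IMs (TIMs) came from primary lung tumors (n = 5) and lymph node metastases (n = 5) of FVB mice given 500000 KAL-LN2-E1 cells (LN2E1) into the lung, and from lungs with tumors of DBA2 mice given 300000 LN4K1 cells by vein (n = 5). Both lines are mouse models of lung squamous cancer, and adult mice of both sexes were used according to the study's methods. No mouse in these groups carried an engineered allele or received a drug, as far as the labels state. The models differ in strain, in cell line, in tissue and in how the cells were given, and these cannot be told apart, and marrow is a different tissue from a tumor, so each contrast of TIMs with BM IMs is also a contrast of tissues.

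Integrins are surface receptors built of 1 α and 1 β subunit that bind other cells or the extracellular matrix. The β2 subunit Itgb2 (CD18) pairs with Itgal to form LFA-1, with Itgam (CD11b) to form Mac-1, with Itgax (CD11c) and with Itgad. These receptors bind ICAM1 and, for Mac-1, complement and fibrinogen, and they serve firm adhesion and phagocytosis in myeloid cells. Itga4 pairs with Itgb1 (VLA-4, a receptor for VCAM1) or with Itgb7 (a receptor for MAdCAM1), Itga5 pairs with Itgb1 as the main fibronectin receptor, and Itgav pairs with Itgb3 and other β subunits to bind vitronectin and osteopontin.

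IMs were sorted as CD45+ CD11b+ Ly6C-high cells without Ly6G, and without Siglec-F according to the study's methods. Itgam encodes CD11b, so the sort itself required its protein, and no Itgam value below tells how many cells carried it. Counts per library ranged from 80772922 to 101043568. Levels are given as TMM-scaled CPM (counts scaled to a common library size), and fold changes as log2 values with standard error (SE). The sorted identity was seen in every library, with Ly6c2 at 974 to 3600.0 CPM, Ccr2 at 704 to 2918 and Csf1r at 625 to 3362. Ly6c2 was lower in every TIM library (974 to 1688 CPM) than in every marrow library (2434 to 3600.0). So was Ly6c1 (67.1 to 133 and 170.1 to 256 CPM). Ly6g was not analysed here. Neutrophil precursor genes (7 markers, among them Elane and Mpo) summed to 2811 to 4955 CPM in BM IMs and to at most 494 in TIMs, and eosinophil markers to 489 to 1325 and 18.5 to 89.3. Fibroblast markers summed to 365 to 1112 CPM in primary tumor TIMs, 0.836 to 87.1 in node TIMs and 1.31 to 43.0 in lung TIMs, against at most 0.359 in BM IMs. LN4K1 lung replicate 3 stood apart, with Csf1r at 785 CPM against a group median of 2001, and FVB BM replicate 3 was the highest FVB marrow library for Itgam, Itgal, Itga5 and Itgb3. In these bulk libraries, fewer cells of a type and less RNA per cell cannot be told apart.

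Itgam (chr7:128062640-128118491), Itgax (chr7:128129547-128150657) and Itgad lie head to tail on the plus strand of chromosome 7 in GRCm38, with gaps of 11.1 kb and 3.72 kb, and Itgal (chr7:127296260-127335138) ends 728 kb before Itgam. Itgb7 (chr15:102215995-102231944) and Itga5 (chr15:103344286-103366763) are both on the minus strand of chromosome 15. Itga4 (chr2:79255426-79333123) and Itgav (chr2:83724397-83806916) are on chromosome 2, Itgb2 (chr10:77530252-77565708) on chromosome 10, Itgb1 (chr8:128685654-128733200) on chromosome 8 and Itgb3 (chr11:104608000-104670476) on chromosome 11. Exons of Itga4 share 8.04% of their length with Cerkl on the opposite strand, and exons of Itgav 5.90% with Gm13684 on the opposite strand. The libraries were not stranded, so reads of such overlaps cannot be assigned to 1 strand. Exons of Itgam share 68.7% of their length with the gene model Gm49368 on the same strand, which was not analysed here.

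RefSeq promoter windows (250 bases before to 50 after the start site, GRCm38.p6) were found for 7 of the 10 genes, all but Itgal, Itgb2 and Itgb3. The windows below are those of the neighbors Itgam and Itgax, which both rose in the LN2E1 model, of Itga5, which rose in every tumor site, and of Itgb7, which fell in every tumor site. Capitals mark matches, on either strand, to GAGGAA (the core of PU.1 sites), TGTGGT (RUNX core), TGANTCA (AP-1) and GGGCGG (GC box of SP and KLF factors).
Itgam, chr7:128062390-128062689, plus strand: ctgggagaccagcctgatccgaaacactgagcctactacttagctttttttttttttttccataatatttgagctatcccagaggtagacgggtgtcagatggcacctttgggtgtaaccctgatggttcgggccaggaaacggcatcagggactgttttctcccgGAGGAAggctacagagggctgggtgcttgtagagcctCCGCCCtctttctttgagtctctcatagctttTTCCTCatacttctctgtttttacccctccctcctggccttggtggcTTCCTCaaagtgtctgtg
Itgax, chr7:128129300-128129599, plus strand: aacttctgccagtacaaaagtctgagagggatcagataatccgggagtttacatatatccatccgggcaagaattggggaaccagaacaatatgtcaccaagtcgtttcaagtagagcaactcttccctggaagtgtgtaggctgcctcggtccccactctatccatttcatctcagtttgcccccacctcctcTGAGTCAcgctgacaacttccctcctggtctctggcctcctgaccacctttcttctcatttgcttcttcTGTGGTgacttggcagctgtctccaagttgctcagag
Itga5, chr15:103366742-103367041, minus strand: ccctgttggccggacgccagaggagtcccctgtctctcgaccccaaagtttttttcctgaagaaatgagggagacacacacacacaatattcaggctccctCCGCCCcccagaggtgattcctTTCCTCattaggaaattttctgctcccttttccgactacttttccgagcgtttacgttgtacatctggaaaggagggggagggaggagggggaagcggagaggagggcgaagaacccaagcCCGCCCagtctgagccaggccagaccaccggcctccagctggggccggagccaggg
Itgb7, chr15:102231886-102232185, minus strand: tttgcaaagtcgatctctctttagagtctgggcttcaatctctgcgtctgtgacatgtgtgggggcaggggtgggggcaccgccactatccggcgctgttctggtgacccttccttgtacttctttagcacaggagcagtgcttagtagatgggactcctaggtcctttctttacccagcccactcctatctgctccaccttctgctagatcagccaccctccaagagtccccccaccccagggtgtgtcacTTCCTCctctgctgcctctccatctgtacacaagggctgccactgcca
The Itgam window held 3 matches to the PU.1 core and 1 to the GC box. The Itgax window held neither, but 1 match to the AP-1 motif and 1 to the RUNX core. The Itga5 window held 1 PU.1 core and 2 GC boxes, and the Itgb7 window a single PU.1 core. Over 32851 promoter windows of this length, 28.3% held the PU.1 core, 16.8% the RUNX core, 7.81% the AP-1 motif and 35.7% the GC box, so 1 match of these letters describes the window and marks no site.

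In the LN2E1 primary tumor, 8 of the 10 integrin genes rose and Itgb7 fell against FVB BM IMs (edgeR quasi-likelihood test, Benjamini-Hochberg adjusted p under 0.05 over 14569 genes, the rule for rose and fell throughout). Over all genes, 33.3% rose and 28.6% fell in this comparison. The 8 libraries did not overlap between the groups, with TIMs higher, for 8 of the 10 genes, against 30.7% of all genes. Lymph node TIMs gave the same counts against the same 3 FVB BM libraries, 8 higher and Itgb7 lower, where 20.2% of all genes rose and 17.2% fell, and 8 genes were higher without overlap against 20.1% of all genes. In LN4K1 lung TIMs against DBA2 BM IMs, 6 genes rose and 2 fell (Itgb7 and Itgb3), where 13.9% of all genes rose and 11.0% fell, and 6 were higher without overlap against 19.9%. The median log2 fold change of the 10 genes was 1.67 in the primary tumor, 1.85 in the node and 0.62 in the lung, beside medians over all genes of 0.08, -0.04 and 0.03. At the study's thresholds for differentially expressed genes (DEGs; an adjusted p under 0.0001 together with a log2 fold change beyond 1 in size), 7 of the 10 genes were higher in the primary tumor (7.72% of all genes), 4 in the node (4.01%) and 0 in the lung (1.21%). In the lung, edgeR gave 8 genes an unadjusted p under 0.05 and DESeq2 called 2 DEGs. Unshrunken DESeq2 called 1569 DEGs over all genes there, against 405 with edgeR. These DEG counts turned on single libraries: leaving out 1 library gave 2 to 6 in the primary tumor (2 without FVB BM replicate 2, 3 without FVB BM replicate 1 or primary tumor replicate 4, 4 without primary tumor replicate 2 or 5) and 1 to 6 in the node (1 without any 1 of the 3 FVB BM libraries or of node replicates 2, 4 and 5, 2 without node replicate 3), while 9 or 10 of the 10 genes still passed an adjusted p of 0.05 in the first and 9 in the second. Over all genes, the same leave-outs gave 938 to 2031 DEGs in the primary tumor, against 1879 with all libraries. In the node they gave 307 to 977, against 758. The lung count of 8 ranged from 4 (without DBA2 BM replicate 2 or 3, or lung replicate 4) to 10 (without lung replicate 3) and was 5 without DBA2 BM replicate 1. Over all genes, 3389 passed in the lung with all libraries. The leave-outs that gave 4 left 2158, 2134 and 2673 genes, and 5036 passed without lung replicate 3. Without DBA2 BM replicate 1, 2355 passed.

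**Figure D1:**
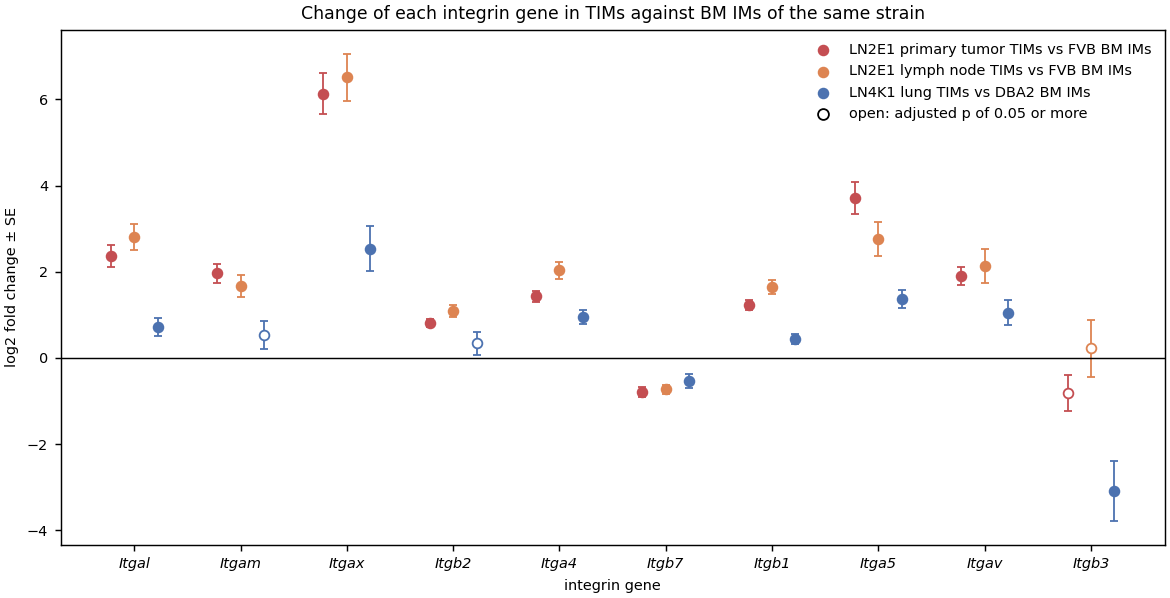
Log2 fold change (vertical axis, ± SE) of each integrin gene (horizontal axis) in TIMs against BM IMs of the same strain, for 3 tumor sites with 5 TIM and 3 BM libraries each; open points had an adjusted p of 0.05 or more. Itgax shows the largest rise of the 10 genes at each site (6.13, 6.51 and 2.53), Itgb7 lies below 0 at each site, and Itgb3 lies at -3.09 in the lung.

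Itgax, the CD11c subunit of monocyte-derived and dendritic cells, was nearly silent in marrow. Its level was 0.330, 1.38 and 0.858 CPM in the 3 FVB BM libraries and 0.924, 3.12 and 0.919 CPM in the 3 DBA2 BM libraries. In primary tumor TIMs it stood at 90.5, 54.2, 46.7, 60.0 and 55.1 CPM, and in node TIMs at 59.8, 62.2, 131, 75.7 and 62.1 CPM. LN4K1 lung TIMs held 11.0, 10.1, 6.97, 15.7 and 6.43 CPM. Every TIM library lay above every BM library of its strain, and every LN2E1 library above every lung library. Itgax rose by a log2 fold change of 6.13 ± 0.47 (adjusted p = 5.88e-06) in the primary tumor, 6.51 ± 0.55 (adjusted p = 1.57e-05) in the node and 2.53 ± 0.52 (adjusted p = 0.00655) in the lung. The change in the primary tumor exceeded that in the lung by 3.62 ± 0.66 (interaction, adjusted p = 0.00156). Markers of dendritic cells (8 genes) summed to 86.1 to 146 CPM in BM IMs, 189.5 to 363 in primary tumor TIMs, 140.4 to 709 in node TIMs and 168 to 384 in lung TIMs. The node library with the highest Itgax level, replicate 3, also had the highest dendritic cell sum, of 709 CPM, while Itgax was 6.97 CPM in the lung library with a sum of 384. Among these markers Zbtb46 was at most 4.63 CPM in any library and Siglech reached 477 CPM in the node. Markers of alveolar macrophages (6 genes) summed to 2914 to 3581 CPM in FVB BM IMs, 3842 to 9344 in primary tumor TIMs and 2292 to 8762 in node TIMs, and to 734 to 2605 in DBA2 BM IMs and 2342 to 5493 in lung TIMs. Nearly all of this sum was Chi3l3, a gene that is also among the monocyte markers used here, at 2897 to 3571 CPM in FVB BM IMs and 3819 to 9329.6 in primary tumor TIMs, while Fabp4 was at most 21.3 CPM and Marco at most 28.3 in any library. Markers of macrophages (7 genes, among them Apoe and C1qa) summed to 865 to 2036 CPM in BM IMs and 2307 to 5571 in TIMs, so that every TIM library lay above every marrow library. Most of this sum was Apoe, with medians of 1168 CPM in FVB BM IMs, 2546 in primary tumor TIMs and 2114 in node TIMs. In DBA2 mice the Apoe median was 798 CPM in marrow and 4612 in the lung. There the C1qa, C1qb and C1qc medians were lower in the lung (2.94, 7.08 and 5.03 CPM) than in marrow (7.58, 14.5 and 9.77). That of Emr1 was higher in the lung (307 and 145 CPM). The part of these cell types in the changes of Itgax, Itgam and Itgb2, which macrophages also express, was not tested.

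**Figure D2:**
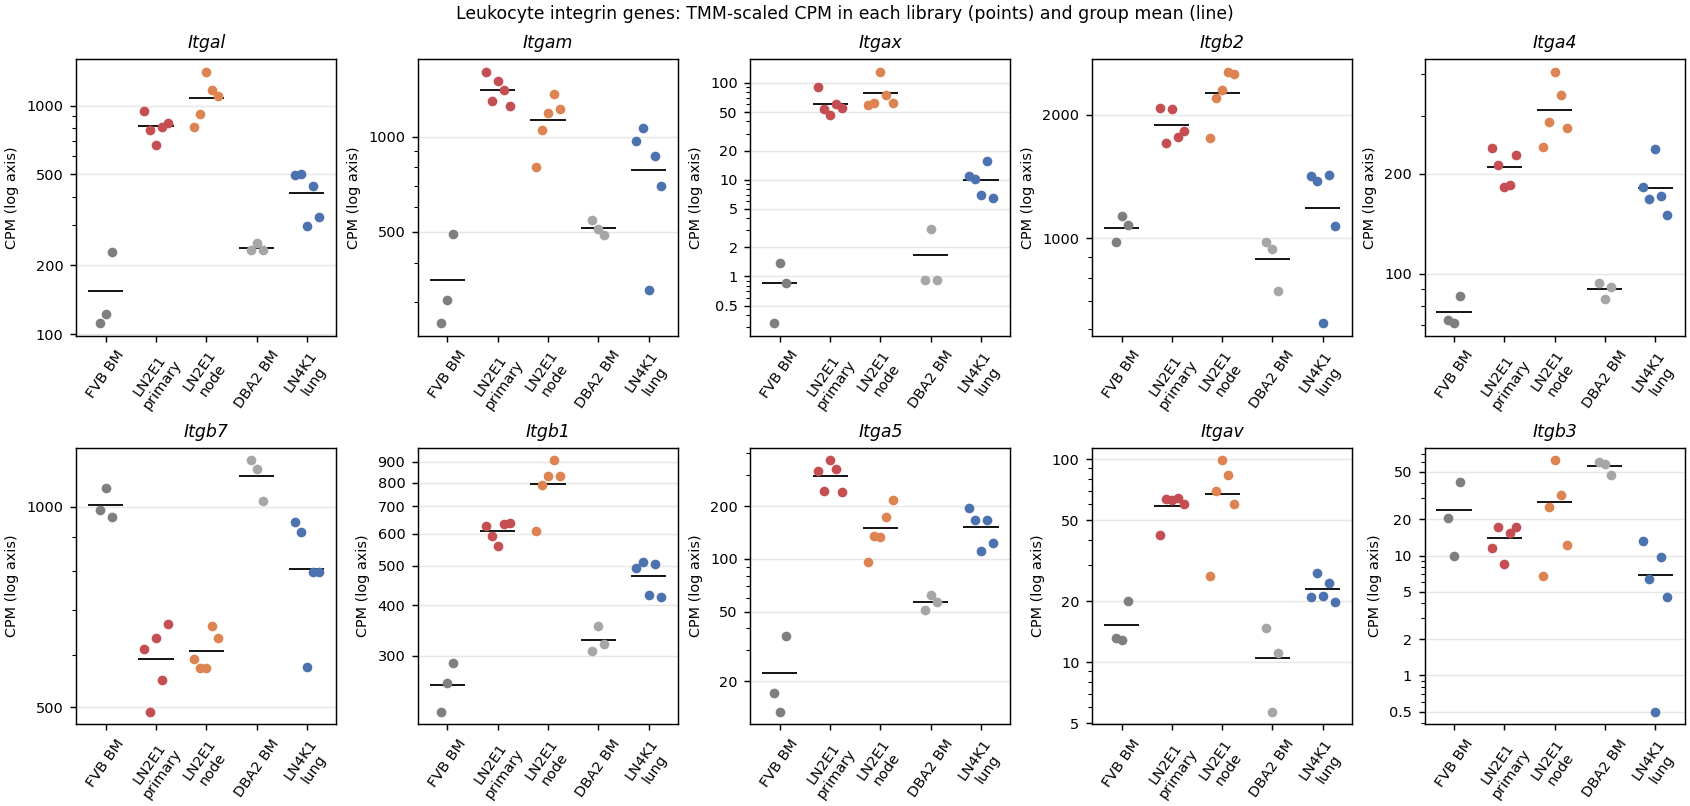
TMM-scaled CPM (vertical log axes) of the 10 integrin genes in each of the 21 libraries, by group, with a line at the group mean. Itgax runs from 0.330 CPM in FVB BM IMs to 131 in node TIMs, and Itgb7 is lower in LN2E1 TIMs than in marrow. LN4K1 lung replicate 3 is the low point of its group for Itgam, Itgal, Itgb2, Itgb7, Itga5 and Itgb3, and the high point for Itga4.

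Itgal, the α subunit of LFA-1, followed the same order of groups at a higher level. FVB BM IMs held 112, 123 and 228 CPM and DBA2 BM IMs 234, 250.3 and 233 CPM. Primary tumor TIMs held 950.3, 783, 672, 806 and 843 CPM, node TIMs 803, 916, 1407, 1167 and 1098 CPM, and lung TIMs 499, 504, 296, 447 and 327 CPM. No TIM library overlapped its marrow group, although the lung range came close to it. Itgal rose by 2.37 ± 0.25 (adjusted p = 3.98e-05) in the primary tumor, 2.80 ± 0.30 (adjusted p = 6.33e-05) in the node and 0.72 ± 0.20 (adjusted p = 0.0288) in the lung, on the log2 scale. The lung call was lost after leaving out any of 6 libraries in turn (0.64 to 0.82 over the 8 leave-outs, highest adjusted p 0.103). The primary tumor change exceeded the lung change by 1.66 ± 0.33 (adjusted p = 0.00241). T cell markers summed to 0.697 to 2.68 CPM in BM IMs and 4.16 to 59.2 in TIMs, and NK cell markers to 3.82 to 37.9 and 55.3 to 188, cells that also express Itgal. The T cell sum of LN2E1 TIMs was mostly Cd4 and Cd8a, with medians of 6.23 and 7.39 CPM in the primary tumor and 12.1 and 11.7 in the node. Cd3d had lower medians in LN2E1 TIMs (0.339 and 0.308 CPM) than in FVB BM IMs (0.777). Those of Lck were higher (1.97 and 2.06 CPM, against 0.318), and Cd3e was at most 1.58 CPM in any library. The NK sum was mostly Klrk1, with group medians of 9.04 CPM in FVB BM IMs, 79.0 in primary tumor TIMs and 172 in node TIMs. The NK markers Ncr1, Prf1 and Gzma had lower medians in LN2E1 TIMs than in FVB BM IMs (Ncr1 0.977 CPM in marrow, 0.259 in the primary tumor and 0 in the node). That of Klrb1c was higher (0.352 CPM in marrow, 2.64 in the primary tumor and 1.99 in the node). In DBA2 mice the medians of Gzma, Prf1 and Ncr1 were 0 CPM in marrow and 5.47, 2.04 and 1.45 in the lung. Those of Cd3e and Cd3g were 0 CPM in DBA2 marrow and 0.905 and 1.01 in the lung. The part of T and NK cells in the Itgal result was not tested.

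Itgam, the CD11b subunit by which the cells were sorted, rose in LN2E1 TIMs. Its level was 258, 306 and 492 CPM in FVB BM IMs, 1604, 1294, 1494, 1401 and 1248 CPM in primary tumor TIMs, and 804, 1053, 1187, 1363 and 1223 CPM in node TIMs. The log2 fold change was 1.97 ± 0.22 (adjusted p = 4.69e-05) in the primary tumor and 1.67 ± 0.25 (adjusted p = 0.000527) in the node, with no overlap of libraries. In DBA2 mice, the BM libraries held 546, 511 and 488 CPM and the lung TIM libraries 967, 1065, 327, 871 and 696 CPM. Lung replicate 3 lay below the marrow libraries and the other 4 above them, and the difference of 0.53 ± 0.32 did not pass the test (adjusted p = 0.271). Without that library it was 0.73 (adjusted p = 0.00350). The change in the primary tumor exceeded that in the lung by 1.46 ± 0.41 (adjusted p = 0.0170), a call lost without FVB BM replicate 1 (1.23, adjusted p = 0.0548) or replicate 2 (1.36, adjusted p = 0.0539). Mature neutrophil markers, which accompany Itgam in granulocytes, summed to 1009.9 to 2489 CPM in BM IMs and 651 to 2092 in TIMs. Members of this list went opposite ways. From FVB BM IMs to node TIMs the median of S100a9 went from 674 to 5.50 CPM and that of S100a8 from 677 to 64.6. Those of Csf3r and Cxcr2 went from 268 to 429.6 and from 1.90 to 8.57. The median of Mmp8 was 443 CPM in FVB BM IMs, 596 in primary tumor TIMs and 407 in node TIMs. In DBA2 mice it was 222 CPM in marrow and 808 in the lung. The part of neutrophils was not tested.

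Itgb2, the common β2 subunit, rose in LN2E1 TIMs. It was at 977, 1129.8 and 1075 CPM in FVB BM IMs, 2073, 1708, 2065, 1765 and 1831 CPM in primary tumor TIMs, and 1752, 2196, 2306, 2550.2 and 2520.1 CPM in node TIMs. The rise was 0.81 ± 0.10 (adjusted p = 0.000113) and 1.09 ± 0.14 (adjusted p = 0.000228), and the libraries did not overlap. DBA2 BM IMs held 978, 940.2 and 741 CPM and lung TIMs 1416, 1376, 619.9, 1428 and 1070.3 CPM, where replicate 3 was again lowest and the difference of 0.34 ± 0.26 did not pass the test (adjusted p = 0.392; without replicate 3, 0.50 and adjusted p = 0.0180). The remaining β2 partner Itgad was scarce, at 0.0810 to 24.8 CPM over all libraries, and fell in lung TIMs (-2.37 ± 0.66, adjusted p = 0.0281).

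Within the summed level per kb of the 4 β2 partner genes, the Itgam share was smaller and the Itgal share larger in the node by group mean. The Itgam level itself rose over marrow there, as given above. Itgam made up 73.8% ± 0.920 (SD, n = 3) of the sum in FVB BM IMs, 67.0% ± 3.25 (n = 5) in primary tumor TIMs and 55.1% ± 3.84 (n = 5) in node TIMs. Itgal made up 24.4% ± 1.47, 29.5% ± 2.92 and 40.2% ± 2.60 in the same groups, and Itgax 0.194% ± 0.136, 3.02% ± 0.545 and 3.96% ± 1.02. The Itgam share of every node library, at most 58.0%, was below that of every primary tumor library, at least 63.7%. In DBA2 mice Itgam held 73.2% ± 1.41 of the sum in marrow and 69.2% ± 6.14 in the lung, where replicate 3 stood at 58.4% and the group median was 71.0%. A share within a library does not depend on library scaling. None of 45 share and ratio differences passed Benjamini-Hochberg adjustment over the 45 (exact two-sided permutation tests, smallest adjusted p = 0.0731). The smallest p these designs allow is 0.0357 for 5 against 3 libraries, 0.00794 for 5 against 5 and 0.1 for 3 against 3.

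Itgb7, the β partner of Itga4 in the gut-homing receptor, was the only one of the 10 genes that fell at all 3 tumor sites. FVB BM IMs held 987, 1065 and 965 CPM, primary tumor TIMs 611, 493, 635, 549 and 666 CPM, and node TIMs 591, 572, 572, 663 and 635 CPM. DBA2 BM IMs held 1173, 1138 and 1018 CPM and lung TIMs 948, 915, 575, 799 and 798 CPM. Every TIM library was below every marrow library of its strain. Itgb7 fell by 0.79 ± 0.11 (adjusted p = 0.000159), 0.73 ± 0.10 (adjusted p = 0.000279) and 0.53 ± 0.16 (adjusted p = 0.0404) on the log2 scale in primary tumor, node and lung. The lung call was lost after leaving out any of 5 libraries in turn (-0.60 to -0.43 over the 8 leave-outs, highest adjusted p 0.131). The neutrophil precursor and eosinophil sums given above were also lower in every TIM library than in every marrow library, and their part in the Itgb7 difference was not tested. Markers of basophils and mast cells, which use α4β7, summed to 242 to 297 CPM in FVB BM IMs, 82.1 to 159.7 in primary tumor TIMs and 94.8 to 513 in node TIMs. In DBA2 mice they summed to 14.0 to 29.6 CPM in marrow and 6.04 to 14.4 in the lung. Members of this list went opposite ways in the primary tumor: Hdc was at 13.1 to 18.9 CPM in FVB BM IMs and 73.8 to 142 in primary tumor TIMs, whereas the median of Prss34 was 147 and 0.244 CPM, that of Mcpt8 73.3 and 5.01, and that of Cpa3 9.33 and 0.961. Their part in the Itgb7 difference was not tested either. The other α partner of Itgb7, Itgae, was at most 2.49 CPM in any library.

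Itga4, the α subunit shared by VLA-4 and α4β7, rose where Itgb7 fell. Its level was 72.6, 70.9 and 85.5 CPM in FVB BM IMs, 239, 212, 183, 185 and 228 CPM in primary tumor TIMs, and 241, 287, 407, 347 and 275 CPM in node TIMs. It was 93.6, 83.7 and 91.3 CPM in DBA2 BM IMs and 183, 168, 237, 171 and 150.3 CPM in lung TIMs. The groups did not overlap at any site, nor between node and primary tumor. Itga4 rose by 1.43 ± 0.13 (adjusted p = 1.10e-05), 2.03 ± 0.19 (adjusted p = 3.18e-05) and 0.95 ± 0.16 (adjusted p = 0.00218) in primary tumor, node and lung. Node TIMs exceeded primary tumor TIMs by 0.58 ± 0.14 (adjusted p = 0.0234), a call lost after leaving out primary tumor replicate 2, 3 or 4 (0.58, 0.54 and 0.53, with adjusted p of 0.0559, 0.0540 and 0.0753). The primary tumor and lung changes differed by 0.51 ± 0.20, which did not pass the test (adjusted p = 0.0669).

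Itgb1, the β partner of both Itga4 and Itga5, rose in every tumor site. FVB BM IMs held 219, 257 and 289 CPM, primary tumor TIMs 626, 593, 558, 634 and 636 CPM, and node TIMs 610.0, 788, 830.2, 909 and 832 CPM. DBA2 BM IMs held 308, 356 and 321 CPM and lung TIMs 494, 509.9, 424, 506 and 419 CPM. No TIM library reached down to its marrow group. The log2 fold changes were 1.23 ± 0.11 (adjusted p = 1.21e-05), 1.64 ± 0.16 (adjusted p = 3.60e-05) and 0.44 ± 0.12 (adjusted p = 0.0270), and the lung call was lost after leaving out any of 5 libraries in turn (highest adjusted p 0.112). The primary tumor change exceeded the lung change by 0.81 ± 0.16 (adjusted p = 0.00246). Node TIMs exceeded primary tumor TIMs by 0.39 ± 0.10 (adjusted p = 0.0315) with overlapping libraries, a call lost after leaving out any of 8 libraries in turn.

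Itga5, the α subunit of the fibronectin receptor, was the gene that separated the 2 LN2E1 sites in the opposite direction. It was at 17.0, 13.4 and 36.2 CPM in FVB BM IMs, at 318, 245, 366, 325 and 240.0 CPM in primary tumor TIMs and at 96.0, 135, 134, 173 and 216 CPM in node TIMs. Every node library lay between the marrow and the primary tumor libraries. In DBA2 mice the BM libraries held 50.9, 62.0 and 56.6 CPM and the lung TIM libraries 196, 166, 111, 166 and 123 CPM. Itga5 rose by 3.72 ± 0.37 (adjusted p = 2.82e-05) in the primary tumor, 2.76 ± 0.39 (adjusted p = 0.000419) in the node and 1.36 ± 0.21 (adjusted p = 0.00124) in the lung, and the primary tumor change exceeded the lung change by 2.38 ± 0.40 (adjusted p = 0.000956). Node TIMs were lower than primary tumor TIMs by a log2 fold change of -0.98 ± 0.20 (adjusted p = 0.0104), which held after leaving out each of the 10 libraries in turn. The log2 ratio of Itga4 to Itga5 level per kb was 0.412 ± 0.604 (SD, n = 3) in FVB BM IMs, -2.00 ± 0.395 (n = 5) in primary tumor TIMs and -0.427 ± 0.470 (n = 5) in node TIMs, and the libraries of node and primary tumor did not overlap (exact permutation p = 0.00794, adjusted p = 0.0731). Fibroblast marker sums moved with Itga5 between these sites (365 to 1112 CPM in the primary tumor, 0.836 to 87.1 in the node), and so did fibronectin itself, Fn1, which was lower in the node by a log2 fold change of -0.83 (adjusted p = 0.00626). Within the primary tumor group, Itga5 was highest in replicate 3 (366 CPM), the library with the lowest fibroblast sum of 365 CPM, and the part of fibroblast RNA between the sites was not tested.

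Itgav, which forms vitronectin and osteopontin receptors, rose at low level. FVB BM IMs held 13.1, 12.8 and 19.98 CPM, primary tumor TIMs 42.2, 63.6, 63.2, 64.1 and 59.9 CPM, and node TIMs 26.6, 69.9, 98.8, 83.2 and 59.9 CPM. DBA2 BM IMs held 14.7, 5.71 and 11.1 CPM and lung TIMs 21.01, 27.6, 21.2, 24.5 and 19.9 CPM. The groups did not overlap at any site, and node replicate 1 was the lowest TIM library of the LN2E1 model. Itgav rose by 1.91 ± 0.21 (adjusted p = 4.41e-05), 2.14 ± 0.39 (adjusted p = 0.00208) and 1.05 ± 0.29 (adjusted p = 0.0263), and the lung call was lost without DBA2 BM replicate 2 or 3 or lung replicate 4 (adjusted p = 0.0506, 0.0796 and 0.0558). Endothelial markers, of cells that also use αv and α5, summed to 59.1 to 128 CPM in LN2E1 TIMs, 6.29 to 18.9 in lung TIMs and 6.03 to 13.7 in BM IMs. Most of the LN2E1 sum was Pecam1, with medians of 49.3 CPM in the primary tumor and 71.9 in the node against 4.61 in FVB BM IMs. Node medians of Kdr and Vwf were 4.13 and 13.3 CPM, against 0.275 and 1.85 in FVB BM IMs. Cdh5 was at most 4.54 CPM in any library. The Cldn5 median was 0.132 CPM in FVB BM IMs, 0.698 in the primary tumor and 0 in the node. The part of endothelial cells was not tested.

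Itgb3, the β3 partner of Itgav and of the platelet subunit Itga2b, behaved unlike the others. It was at 20.5, 9.85 and 41.2 CPM in FVB BM IMs, 11.5, 17.4, 8.44, 15.3 and 17.2 CPM in primary tumor TIMs, and 6.81, 25.3, 62.3, 32.2 and 12.3 CPM in node TIMs. These groups overlapped, and neither the primary tumor difference (-0.81 ± 0.41, adjusted p = 0.112) nor the node difference (0.22 ± 0.67, adjusted p = 0.836) passed the test. The primary tumor difference passed without FVB BM replicate 2 (-1.14, adjusted p = 0.0171). In DBA2 mice Itgb3 was at 60.6, 58.4 and 47.3 CPM in marrow and 13.1, 6.38, 0.500, 9.70 and 4.47 CPM in the lung, with no overlap, a log2 fold change of -3.09 ± 0.70 (adjusted p = 0.0105) that stayed between -3.47 and -2.79 after leaving out any 1 library. Platelet and megakaryocyte markers (10 genes, among them Pf4 and Ppbp) summed to 80.7, 30.0 and 182 CPM in the 3 FVB BM libraries, the same order as Itgb3. In DBA2 BM IMs these markers summed to 65.6, 4.61 and 0.876 CPM while Itgb3 was at 60.6, 58.4 and 47.3 CPM, and in node replicate 3, the library with the most Itgb3, they summed to 6.45 CPM. In DBA2 BM IMs, Ppbp reached 22.8 CPM, Tubb1 16.5, Itga2b 12.9 and Pf4 4.56. The part of platelet RNA in the Itgb3 values was not tested.

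**Figure D3:**
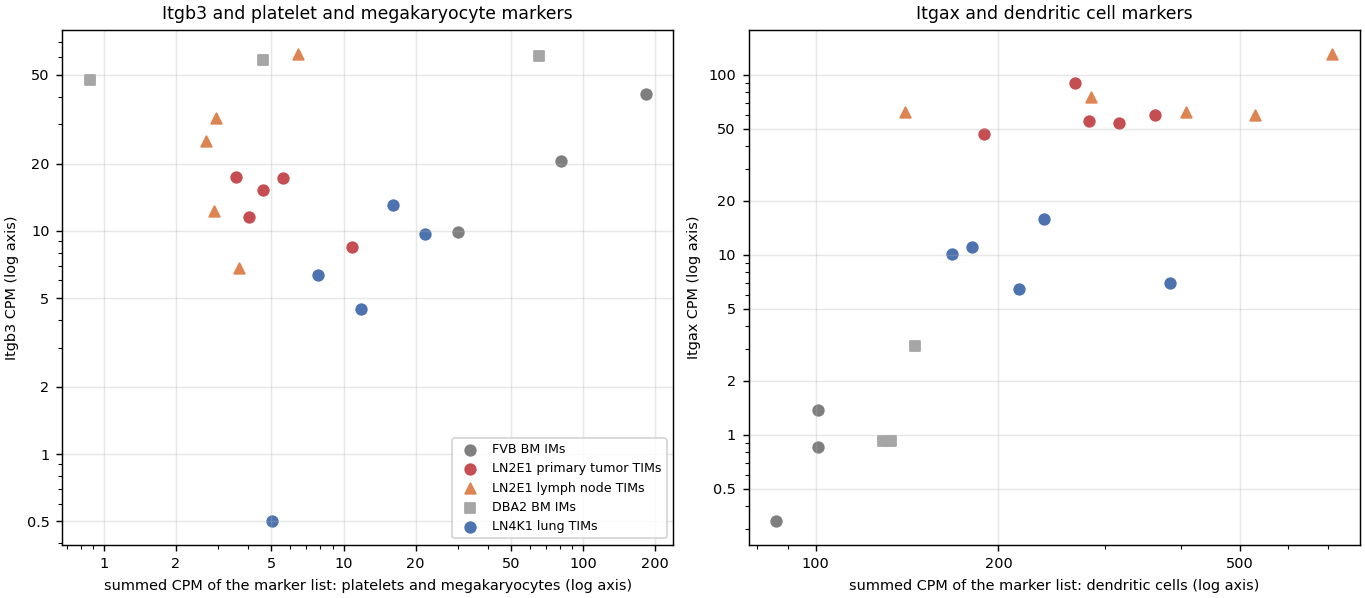
Itgb3 against the summed platelet and megakaryocyte markers, and Itgax against the summed dendritic cell markers (CPM, log axes), 1 point per library, with groups by color. The 3 DBA2 BM libraries hold 47.3 to 60.6 CPM of Itgb3 while their platelet sums run from 0.876 to 65.6. LN2E1 TIMs hold more Itgax than lung TIMs. The dendritic cell sums of these groups overlap but rest on different genes, with Siglech largest by median in LN2E1 TIMs and Cd209a in lung TIMs.

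Ordered by level per kb of exon, Itgb7 and Itgb2 led in marrow and Itgb2 in tumors. In FVB BM IMs Itgb7 was at 363 ± 18.9 CPM per kb (SD, n = 3) and Itgb2 at 348 ± 25.4, with overlapping libraries, followed without overlap by Itgam (70.1 ± 24.6) and Itgb1 (62.5 ± 8.58), which overlapped each other. Below Itgal (23.5 ± 9.77) came Itga4, Itga5, Itgb3 and Itgav, each overlapping its neighbor, and Itgax was last at 0.178 ± 0.109. In primary tumor TIMs the order was Itgb2 (619 ± 55.9, n = 5), Itgam (280.2 ± 28.9), Itgb7 (213 ± 25.1) and Itgb1 (149 ± 8.27), each apart from the next. In node TIMs Itgam (224 ± 42.0), Itgb7 (219 ± 14.7), Itgb1 (195 ± 27.4) and Itgal (164 ± 35.6) each overlapped the next in order. In lung TIMs Itgb2 (387 ± 114) and Itgb7 (291 ± 52.8) overlapped. The lengths are merged exons, 14.0 kb for Itga4 and 10.7 kb for Itgav, so levels per kb of these genes are low if shorter transcripts are used.

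Among the 4 β subunit genes, Itgb7 held a smaller share in tumors than in marrow, and Itgb2 a larger one. Itgb7 made up 46.7% ± 1.93 (SD, n = 3) of their summed level per kb in FVB BM IMs, 21.6% ± 1.51 (n = 5) in primary tumor TIMs and 19.1% ± 2.10 (n = 5) in node TIMs, without overlap between marrow and tumor. Itgb2 went from 44.7% ± 0.926 to 62.9% ± 1.94 and 63.8% ± 1.58, and Itgb1 from 8.03% ± 0.940 to 15.3% ± 1.46 and 16.7% ± 0.634. In DBA2 mice Itgb7 made up 51.4% ± 1.22 in marrow and 37.0% ± 2.88 in the lung, and Itgb2 37.1% ± 1.97 and 47.9% ± 5.13, also without overlap. Exact permutation p for each of these Itgb7 and Itgb2 differences was 0.0357, the smallest that 5 against 3 libraries allow, and the adjusted p was 0.0731.

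**Figure D4:**
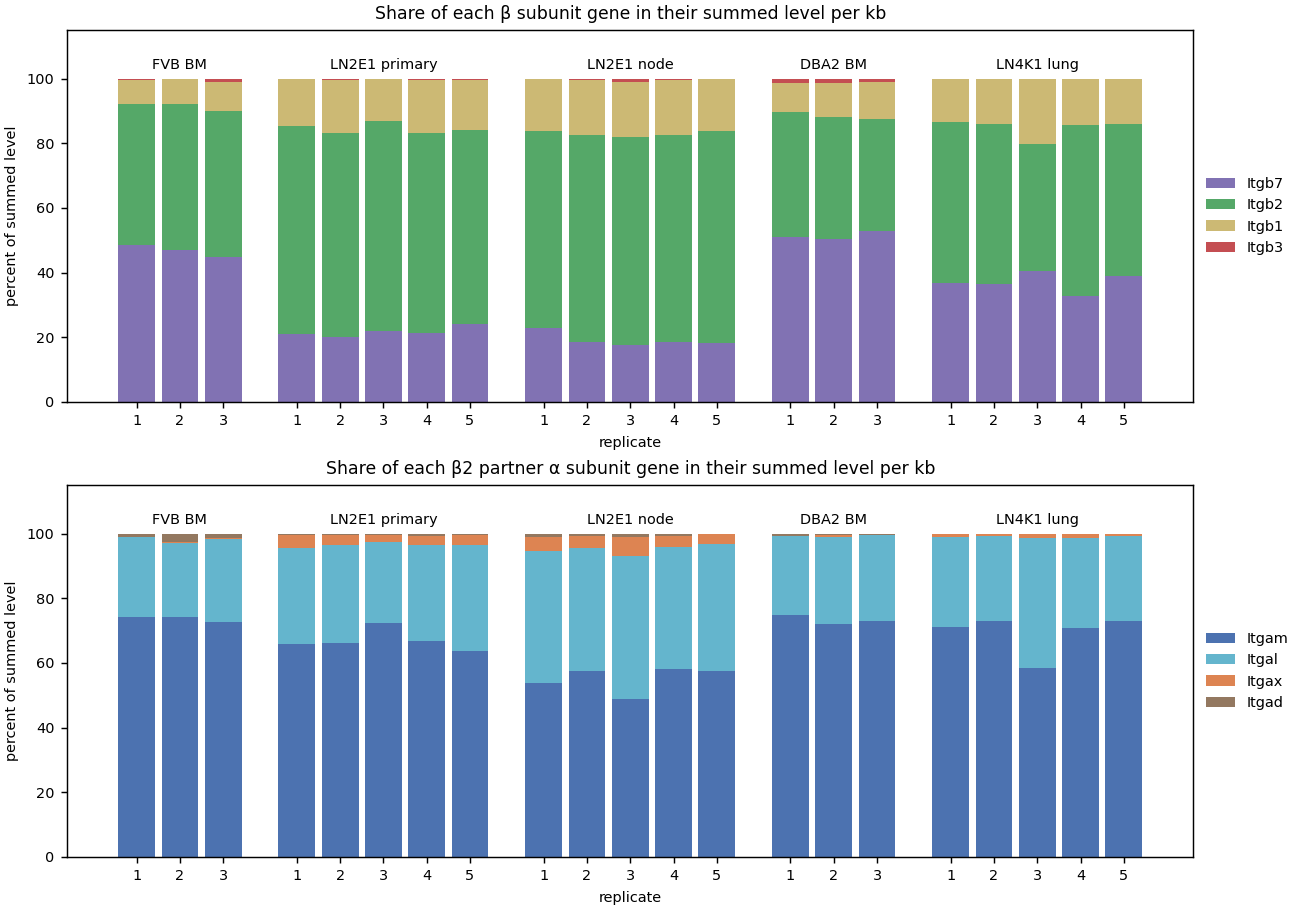
Share (percent of the summed level per kb, vertical axes from 0) of each β subunit gene, above, and of each β2 partner α subunit gene, below, in each of the 21 libraries. Itgb7 takes 44.7% or more of the β sum in every marrow library and at most 24.1% in every LN2E1 TIM library, and the Itgal share is largest in node TIMs (40.2%) among the group means.

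Between the LN2E1 sites, 3 of the 10 genes passed the test, against 11.7% of all genes: Itga4 and Itgb1 were higher and Itga5 lower in the node. Leaving out 1 library gave 1 to 5 (1 without primary tumor replicate 2, 3 or 4, 5 without node replicate 1). Over all genes these leave-outs gave 889 to 2256, against 1578 with all libraries. Between the marrows of the untreated strains, Itga5 alone passed, higher in DBA2 by 1.36 ± 0.34 (adjusted p = 0.0272), where 21.1% of all genes passed. That comparison turned on FVB BM replicate 3, for all genes as well as these: without it 4828 of 13276 genes passed, against 2719 of 12905 with all libraries and 1115 of 13266 without FVB BM replicate 2. Of the 10 genes, 6 passed without replicate 3, all higher in DBA2, among them Itgal (1.07, adjusted p = 7.98e-05) and Itgam (0.91, adjusted p = 0.000338), and without any 1 of the other 5 libraries 0 passed with edgeR (5 at an unadjusted p under 0.05 with all libraries, and 4 adjusted with DESeq2). For the difference between the primary tumor change and the lung change, 5 of the 10 genes passed (Itgax, Itga5, Itgal, Itgam and Itgb1), each with the larger rise in the primary tumor, where 26.5% of all genes passed. With FVB BM replicate 3 left out, 8 of the 10 genes passed, and 4459 of 15636 over all genes, against 4022 of 15182 with all libraries. Itgb3 differed by 2.30 ± 0.90, short of the threshold (adjusted p = 0.0691).

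The signaling genes around the integrins moved in part. Of 12 genes of inside-out activation, which links talin, kindlin and RAP1 to integrin tails, 6 rose and 2 fell in the primary tumor, 6 rose and 1 fell in the node and 4 rose in the lung, with 11, 11 and 12 genes tested and median log2 fold changes of 0.52, 0.83 and 0.47. Over all genes, 33.3%, 20.2% and 13.9% rose and 28.6%, 17.2% and 11.0% fell at these sites, with medians of 0.08, -0.04 and 0.03, and all list counts in this and the next 2 paragraphs stand against these shares. Rap1b, a small GTPase of this step, was at 793 ± 58.3 CPM (SD, n = 3) in FVB marrow and rose to 1300.3 ± 132 (n = 5) in the primary tumor (0.69 ± 0.10, adjusted p = 0.000320) and 2338 ± 232 (n = 5) in the node (1.56 ± 0.12, adjusted p = 8.06e-06), and was higher in the node than in the primary tumor by 0.86 ± 0.10 (adjusted p = 0.000570). The adaptor Fyb rose by 0.67 ± 0.11, 0.83 ± 0.11 and 0.87 ± 0.11 at the 3 sites. Of 6 genes that restrain activation, 4, 3 and 3 rose, with medians of 0.52, 0.45 and 0.10. These included Rap1gap2, which switches RAP1 off (1.15 ± 0.23, 1.83 ± 0.24 and 0.45 ± 0.14), and Sharpin, which binds α tails (0.46 ± 0.12, 0.48 ± 0.12 and 0.38 ± 0.11).

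Of 22 genes of outside-in signaling and actin linkage, 16 rose and 3 fell in the primary tumor, 11 rose and 3 fell among 20 tested in the node, and 7 rose and 2 fell in the lung, with medians of 1.15, 0.84 and 0.14. Fgr, a Src family kinase that acts below β2 integrins in myeloid cells, was a DEG at both LN2E1 sites (1.41 ± 0.12, adjusted p = 8.98e-06, and 1.58 ± 0.11, adjusted p = 4.77e-06). Fgr was at 295 ± 29.2 CPM (SD, n = 3) in FVB marrow, 795 ± 88.6 (n = 5) in the primary tumor and 879.6 ± 40.9 (n = 5) in the node, and it rose from 423 ± 18.8 in DBA2 marrow to 778 ± 194 in the lung (0.80 ± 0.22, adjusted p = 0.0241).

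Of 14 ligand genes, 9 were tested: 7 rose and 2 fell in the primary tumor, 4 rose and 2 fell in the node, and 3 rose and 1 fell in the lung, with medians of 1.74, 0.18 and -0.09. Icam1, the ligand of LFA-1 and Mac-1, was a DEG at all 3 sites, from 45.7 ± 4.57 CPM in FVB BM IMs to 387 ± 42.7 and 365 ± 53.3, and from 56.1 ± 2.59 in DBA2 BM IMs to 367 ± 91.9. Cdh1, the ligand of αEβ7, reached 52.5 ± 12.6 CPM in primary tumor TIMs and 62.4 ± 46.0 in the node, where it ranged from 8.14 to 136, against 1.67 ± 0.381 in FVB BM IMs. It was at 0.285 ± 0.223 CPM in DBA2 BM IMs and 22.2 ± 14.2 in the lung. Spp1 (osteopontin), a ligand of αv and α4 integrins, rose from 212 ± 46.4 to 718 ± 186 CPM in the primary tumor and fell to 127 ± 31.1 in the node (1.74 ± 0.23 and -0.74 ± 0.22), and rose from 4.74 ± 1.81 CPM in DBA2 BM IMs to 33.5 ± 21.7 in the lung (2.74 ± 0.71, adjusted p = 0.0210). Of the 17 other integrin subunit genes, 16 could be tested in the primary tumor, where 9 rose and 4 fell, and 9 in the node, where 2 fell. The 2 that fell in the node were Itga2b and Itgb2l. In the lung 2 rose and 3 fell of 13. The shares that fell in the primary tumor and the node are near those of all genes.

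Over the 21 libraries, the pattern of log2 CPM of Itgal was most like that of Ace (Pearson r = 0.987) and Rab43 (0.984) among 8016 genes, and that of Itgam was most like Abr (0.986). Itgax was most like Cd274 (0.978) and Ly6a (0.974), Itga4 most like Emr4 (0.981) and Cytip (0.972), and Itga5 most like Furin (0.971) and Sbno2 (0.968). Itgb1 was most like Itgal (0.981) and Emr4 (0.980), and Itgb2 most like Uvrag (0.970) and 4833439L19Rik (0.968). Itgav was most like Tapt1 (0.956) and March7 (0.953), and Itgb3 most like Sart3 (0.901) and Sun1 (0.887). Between members, r ranged up to 0.981 among the rising genes, was -0.852 between Itgb7 and Itgax, and lay between -0.212 and 0.330 for Itgb3 with each other member. The libraries of a group share strain and tissue, so these values mostly describe differences between the 5 groups.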

How the data were processed

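RNA was amplified with a SMARTer Ultra low input kit, and libraries were made with Nextera XT without strand. The authors trimmed reads with BBDuk, aligned them to mm10 with BBMap and deposited raw counts per gene from featureCounts 1.5.2 (SAMtools 1.8 for sorting), and the settings and annotation of the counting are not given in the sources used here. Amplification without molecular identifiers means that counts are not independent molecules. The study's methods call the replicates technical, so p-values measure only the spread between these samples. No 2 libraries of a group agreed within sampling noise (chi-square per gene of 48.2 or more). All 10 genes, the pathway lists and the marker lists were chosen with earlier results of these data known.

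The deposited counts were fitted per comparison with edgeR 4.0.16 (R 4.3.3; robust quasi-likelihood test, TMM scaling, filterByExpr with a minimum count of 10), with p-values adjusted over all genes tested. SE is the absolute log2 fold change divided by the square root of F. The interaction was fitted on 4 groups. CPM is TMM-scaled; log2 CPM used a prior count of 2. Levels per kb use merged exon lengths of GENCODE models (GRCm38, the same assembly as mm10). Shares and ratios were compared by exact permutation tests (scipy 1.17.1). Named genes are all 10 members, Itgad and Itgae, and from each pathway list the DEGs in at least 2 of the 3 contrasts of TIMs with BM IMs, or where these were fewer than 2, up to 2 genes that passed in all 3 with the largest smallest change; Fn1, Itga2b and Itgb2l were named after their values were seen. The 2 genes most like each member had the highest r, with genes kept where log2 CPM averaged over 3. Alternatives were DESeq2 1.42.0, its size factors, other count filters, 1 fit of all groups, a replicate block and leaving out each library. The fits were tested on simulated data. Some genes that these rules name are not reported here.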

Additional observations from a re-analysis of the deposited data

Results flagged for a closer look

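Single libraries stood apart from the other 4 of their group (Dixon's test at the 95% level) in 6 of the 57 groups of 5 values examined, where chance gives about 1 in 20. These were the Itgax level of node replicate 3 (131 CPM), the Itgav level of primary tumor replicate 1 (42.2 CPM), the Itgal and Itgam shares of the β2 partner genes in lung replicate 3 (40.3% and 58.4%), the Itgb1 share of the β subunit genes in the same library (20.2%) and the Itgb7 share in node replicate 1 (22.8%). Of these 6, 3 come from lung replicate 3. Shares within a library add up to the whole, so its Itgal and Itgam flags are not separate events. The 57 groups are therefore not independent, and the excess over chance cannot be read from these counts.

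The change against marrow differed between the primary tumor and the LN4K1 lung by the interaction test for Itgax (3.62), Itga5 (2.38), Itgal (1.66), Itgam (1.46) and Itgb1 (0.81), in log2 units. The 2 LN2E1 sites differed for Itga4 (0.58), Itgb1 (0.39) and Itga5 (-0.98), node minus primary tumor.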

How the results depend on the processing

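Of 970 member fold changes under alternatives, 892 kept their direction and their side of the threshold, 46 lost it, 29 newly passed, and 3 changed sign, all in differences that had not passed: Itgb3 in the node without FVB BM replicate 2 (-0.16) or node replicate 3 (-0.33; -0.33 to 0.88 over the leave-outs), and Itgb7 between node and primary tumor without primary tumor replicate 2 (-0.02; -0.02 to 0.09). Counts of members past an adjusted p of 0.05 that moved by over 1.5 times were 4 (DESeq2, unshrunken or shrunken) against 1 between the marrows, and 8 (DESeq2, unshrunken) against 5 for the interaction. Over all genes these counts were 3614 against 2719 and 4894 against 4022. DEG counts were 7 with all 5 groups in 1 fit and 8 with DESeq2 (unshrunken or shrunken) against 4 in the node, 2 with DESeq2 against 0 in the lung, and 1 with unshrunken DESeq2 against 0 between node and primary tumor. Over all genes the node had 1947 DEGs in 1 fit and 2313 with unshrunken DESeq2, against 758. Unshrunken DESeq2 called 1569 against 405 in the lung and 374 against 4 between node and primary tumor. Without 1 library, members past an adjusted p of 0.05 numbered 9 to 10 in the primary tumor, 9 in the node, 4 to 10 in the lung, 1 to 5 between node and primary tumor, 0 to 6 between the marrows and 4 to 8 for the interaction, and DEGs 2 to 6, 1 to 6, 0, 0 and 0 to 2 in the first 5 of these. The labels do not state whether node and primary tumor samples of the same replicate number came from 1 mouse, so a replicate block is given only here. Correlations of same-numbered deviations ran from -0.297 to 0.297 and cannot settle this. Node replicates 1, 2 and 3 and lung replicates 2 and 3 were each closest to the marrow library of their own number. Node replicate 4 was closest to primary tumor replicate 4, and the other node replicates were not closest to their own number. The block gave 0 DEGs in the primary tumor and the node, as it did over all 14569 and 13273 genes, so that this says nothing about integrins. At an adjusted p of 0.05 it left 3 members in the lung and 0 between node and primary tumor. Over all genes it left 1324 and 533 there, against 3389 and 1578 without the block. The block left 9, 9, 1 and 5 members in the primary tumor, the node, the marrows and the interaction, and 5954, 3566, 2392 and 3115 genes over all genes. Of 485 list counts 382 stayed within 1.5 times, and of 135 share and ratio differences 129 moved by less than 1 SD. The cause of these shifts was not tested. Itgb3 rested on 37 counts in lung replicate 3.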
